A study of Homo sapiens with 30 samples.

Results

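The genes described here are 38 genes of G2 phase and mitosis, among 60664 genes counted in each of 30 RNA-seq libraries of human cell lines. They were listed by name and matched by Ensembl identifier; the rule uses no measured value, though earlier results of these data were known when the list was made. The list holds 7 genes for cyclins, CDK1 and their activators, 6 for mitotic kinases and the chromosomal passenger complex, 6 for the spindle checkpoint and anaphase, 5 for the centromere and kinetochore, 7 for motors, spindle and centrosome, 5 for cytokinesis and 2 for chromosome structure (TOP2A and MKI67). The libraries form 10 groups of 3 separate cultures. Wild-type K562 cells, a chronic myeloid leukemia line, and wild-type HCT116 cells, a colorectal carcinoma line, were kept for 3 days with 10 µM of an inhibitor of the maintenance methyltransferase DNMT1 (DNMT1i) or with DMSO at 0.1%. In a further K562 line, SON and SRRM2, which build nuclear speckles, carry degron tags; these cells received for 6 hr either 500 nM dTAG-13, which removes both proteins, or DMSO at 0.1%. HT-CTCF cells are HCT116 cells with a HaloTag on both CTCF alleles, which lets the degrader HaloPROTAC3 remove CTCF. They formed 4 groups treated for 1 day with DNMT1i (10 µM) plus HaloPROTAC3, DMSO plus HaloPROTAC3, DNMT1i alone or DMSO alone, with HaloPROTAC3 started before the other compound. Both knock-in lines came from single-cell clones, and every control group carries the same tags as its treated group.

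As background, cells make the RNA of these genes mostly in late S phase, G2 and mitosis. A repressor complex built on MuvB holds the genes down in G1 and in quiescent cells, and MuvB with B-MYB and then FOXM1 activates them later in the cycle. MuvB contacts a short promoter element, the cell cycle genes homology region (CHR), often with CCAAT boxes bound by NF-Y close by. The products drive entry into mitosis (cyclin B with CDK1), chromosome capture (NDC80 and NUF2), the checkpoint (BUB1B, MAD2L1), segregation (CDC20, PTTG1) and cell division (ANLN, ECT2). MKI67 encodes the proliferation antigen Ki-67, and PLK1 and AURKB encode kinases that act throughout mitosis.

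RefSeq promoters (GRCh38.p14, 250 bases before to 50 after the annotated start) were found for 34 of the 38 genes, and AURKA, BIRC5, TPX2 and TTK had no entry. The CHR letters TTTGAA, searched on both strands, occurred in 23 of these 34 promoters (67.6%) and in 15.4% of all 27305 promoters of the same length. CCAAT occurred in 26 of the 34 (76.5%) and in 35.7% of all, the GC box GGGCGG in 26 (76.5%) and in 44.6% of all, and the variant CHR letters TTCGAA in 2 (5.88%) and in 1.45% of all. TTTGAA and TTCGAA cannot match at the same place, and CCAAT can share end letters with a neighboring match. The 250 bases before the start are shown for the genes with the largest falls (PLK1, AURKB) and the smallest called falls (CDC20, ECT2) under DNMT1i in HCT116 cells (the CDC20 call was lost by library size only and the ECT2 call without DMSO replicate 1), so that the promoters can be set beside the responses. They lie at chr16:23678639-23678888 on the plus strand (PLK1), chr17:8210226-8210475 on the minus strand (AURKB), chr1:43358731-43358980 on the plus strand (CDC20) and chr3:172750476-172750725 on the plus strand (ECT2). Each reads 5′ to 3′ along the gene, with TTTGAA and CCAAT on either strand in capitals.
PLK1: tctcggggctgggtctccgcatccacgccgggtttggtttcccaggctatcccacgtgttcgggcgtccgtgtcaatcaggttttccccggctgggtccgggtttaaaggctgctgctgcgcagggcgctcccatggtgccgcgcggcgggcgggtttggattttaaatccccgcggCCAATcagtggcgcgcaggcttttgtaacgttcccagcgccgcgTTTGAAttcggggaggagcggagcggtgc
AURKB: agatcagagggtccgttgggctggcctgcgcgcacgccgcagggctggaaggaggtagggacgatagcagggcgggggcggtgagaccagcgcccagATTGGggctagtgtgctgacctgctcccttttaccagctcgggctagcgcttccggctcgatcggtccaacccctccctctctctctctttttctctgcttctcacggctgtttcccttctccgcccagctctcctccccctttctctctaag
CDC20: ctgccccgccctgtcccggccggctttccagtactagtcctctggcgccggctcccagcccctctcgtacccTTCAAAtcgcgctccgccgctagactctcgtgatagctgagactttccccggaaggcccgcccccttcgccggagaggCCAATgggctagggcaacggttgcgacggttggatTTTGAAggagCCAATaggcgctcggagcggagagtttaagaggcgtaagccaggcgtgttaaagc
ECT2: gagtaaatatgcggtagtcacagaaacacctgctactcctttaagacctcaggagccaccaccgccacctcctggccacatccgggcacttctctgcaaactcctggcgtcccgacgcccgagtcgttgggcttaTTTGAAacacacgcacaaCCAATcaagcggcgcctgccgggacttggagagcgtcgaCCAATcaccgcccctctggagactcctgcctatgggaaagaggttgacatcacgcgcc
PLK1 has the CHR letters 29 bases and a CCAAT 73 bases before its start. CDC20 has CHR letters 65 and, on the other strand, 178 bases before the start, with CCAAT at 100 and 55 bases. ECT2 has CHR letters 115 bases before the start and CCAAT at 97 and 58 bases. A further CCAAT of ECT2 begins 2 bases before the start and a further TTTGAA at position 35 after it. The bases shown hold neither in full. AURKB has no TTTGAA in this window and 1 CCAAT on the other strand, 153 bases before the start. In HCT116 cells under DNMT1i, 19 of the 22 tested genes with TTTGAA were called lower (median log2 fold change −0.58), against 9 of the 11 without it (median −0.51), so the promoters with and without these letters gave close medians. A match of letters is a description and not a binding site.

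Each library of the wild-type and speckle experiments held 16173008 to 21228534 gene counts and each HT-CTCF library 4243092 to 9407430. Levels are given as CPM, gene counts scaled to a common library size with TMM factors set within each experiment, and a call means an adjusted p below 0.05 in the edgeR quasi-likelihood test over all genes tested. Erythroid markers (6 genes) summed to 387 to 583 CPM in the K562 lines and to 0.923 to 4.30 CPM in the HCT116 lines, and epithelial markers (6 genes) to 434 to 1094 CPM against 3143 to 4241 CPM. Of the epithelial markers VIL1 did not follow its label, with means of 1.22 CPM in K562 DNMT1i cells and 0.153 CPM in HCT116 DMSO cells. K562 DMSO replicate 3 stood apart from its group, since a chi-square test over genes gave 31.4 and 29.7 per degree of freedom against the other DMSO libraries and 2.48 between those.

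All 38 genes had counts, and 37 passed the filter on low counts in every comparison. NUSAP1, which bundles spindle microtubules, had 0 to 11 counts in each library and was never tested. Of its exon bases, 86.8% lie on the same strand inside exons of another annotated transcription unit, and counting per gene leaves out reads that fit more than 1 gene. PRC1, which crosslinks the central spindle, shares 57.6% of its exon bases in this way and had 24 to 79 counts, so its values are uncertain. Counting by exon bin gave 154, 158 and 163 counts for NUSAP1 and 1262, 1418 and 1576 for PRC1 in the speckle dTAG-13 libraries, against 154, 170 and 147 and 1347, 1215 and 1370 in DMSO. BUB1B (10.2%), CENPA (7.08%) and PCNT (1.17%) share smaller parts of their exons on the same strand. With exons on the opposite strand, PRC1 shares 34.3%, PLK1 12.8%, NUSAP1 9.76%, CCNA2 9.24%, CDC25C 8.8%, KIF20A 5.35% and KIF2C 4.8%. The other genes share 3.51% or less there. Whether counting used strand is not given, so this limit may apply to those genes too.

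Per kilobase of exon, CKS2, the small CDK subunit, was the most abundant of the 36 genes ranked (NUSAP1 and PRC1 were left out) in all 10 groups, from 163 ± 10.2 CPM per kb (SD, n = 3) in HT-CTCF cells with DMSO plus HaloPROTAC3 to 237 ± 8.72 CPM per kb in speckle DMSO cells. CCNB1 (cyclin B1) and TPX2, the activator of Aurora A, were among the next 4 in each group. In K562 DMSO cells CKS2 reached 192 ± 2.30, TPX2 153 ± 4.14 and CCNA2 142 ± 12.4 CPM per kb, and TPX2 and CCNA2 do not differ beyond their spread. PCNT (pericentrin), CDC25C and CENPA stood near the low end, and PCNT had 3.24 ± 0.26 CPM per kb in HCT116 DMSO cells. PLK1 was at rank 10 to 27 and AURKB at rank 15 to 33, while MKI67 ranked 5 or 6 in HT-CTCF cells and 26 in K562 DMSO cells. The plot of summed levels shows where the genes as a group were high or low.

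**Figure D1:**
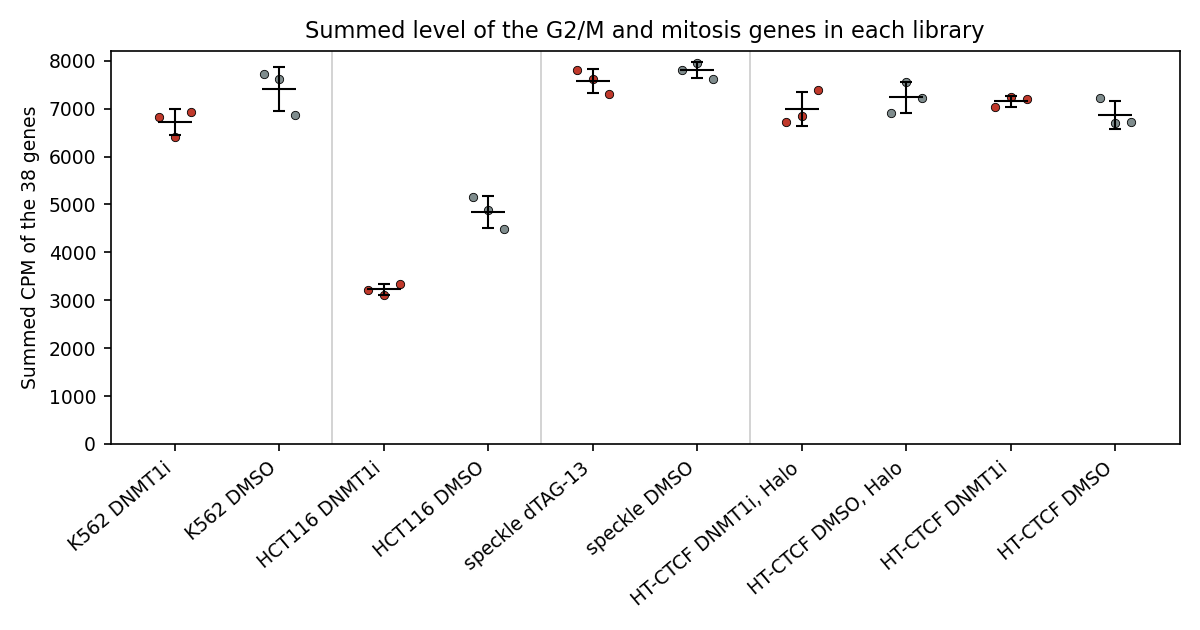
Summed CPM of the 38 genes (y axis, linear from 0) in each of 30 libraries, by group (x axis); points are libraries, and bars give mean ± SD (n = 3). The HCT116 DNMT1i libraries sit at 3110.5 to 3345, below the HCT116 DMSO libraries at 4486 to 5153, and groups of the other experiments lie close to their controls.

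Inhibition of DNMT1 for 3 days lowered most of these genes in HCT116 cells. Of 37 tested genes, 32 fell and 1 rose, where 27.9% of all 15885 genes tested fell and 33.8% rose. The median log2 fold change was −0.56 (0.678-fold), against 0.02 over all genes tested, and 34 of 37 values were negative. In these bulk samples, fewer cells in G2 and mitosis and less RNA per cell cannot be told apart. The 38 genes summed to 3218, 3110.5 and 3345 CPM with DNMT1i and to 5153, 4882 and 4486 CPM with DMSO. Within DMSO, 30 of 37 genes were highest in replicate 1 and 28 were lowest in replicate 3. Such ranks were not counted over all genes, so variation particular to these genes is not shown. DMSO replicate 3 also had the highest share of reads not placed in a single gene of all libraries (23.6%).

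The mitotic kinases and passenger complex fell as a whole, with all 6 called. PLK1, the Polo kinase of mitotic entry and spindle assembly, had 51.9, 54.7 and 53.3 CPM with DNMT1i and 126, 107 and 121 CPM with DMSO. The groups were far apart, and the log2 fold change was −1.14 ± 0.08 (SE, adjusted p = 2.07e-10). AURKB, the kinase of the passenger complex, had 28.8, 31.7 and 28.4 CPM with DNMT1i and 66.5, 58.9 and 65.4 CPM with DMSO (log2 fold change −1.10 ± 0.09, adjusted p = 1.04e-09). No DNMT1i library reached the lowest DMSO library for either gene. Its partners BIRC5 (survivin) and CDCA8 (borealin) fell by 0.72 and 0.46 on the log2 scale, TPX2 by 0.71 and AURKA by 0.52. Every DNMT1i library lay below every DMSO library for 32 of the 38 genes and for 30.2% of all genes tested. Every DNMT1i library lay above for 1 of the 38 and for 35.0% of all genes.

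Among cyclins and CDK1 regulators 6 of 7 fell. CCNB2 (cyclin B2) had 53.1, 55.4 and 63.3 CPM with DNMT1i and 119.7, 115 and 112 CPM with DMSO, a log2 fold change of −1.01 ± 0.08 (adjusted p = 1.61e-09). CDC25C, a phosphatase that activates CDK1, fell by 0.87, CCNA2 and CCNB1 by 0.51 each, CDK1 by 0.41 and CDC25B by 0.39. CKS2 was not called: it had 113, 111 and 119 CPM with DNMT1i and 116, 97.9 and 108 CPM with DMSO, with overlapping groups and a log2 fold change of 0.09 ± 0.08 (adjusted p = 0.311). The most abundant ranked gene per kilobase was thus among the few that did not pass the test.

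All 6 checkpoint and anaphase genes fell: BUB1B by 0.60, PTTG1 (securin) by 0.58, TTK by 0.54, MAD2L1 by 0.45, BUB1 by 0.38 and CDC20, the APC/C activator, by 0.29. CDC20 had 97.0, 113 and 97.6 CPM with DNMT1i and 133, 119.8 and 123 CPM with DMSO, so its groups were separate but close. Of the centromere and kinetochore genes, CENPA (the centromeric histone H3) fell by 0.96, NDC80 by 0.81 and CENPF by 0.71. NUF2, which pairs with NDC80 in the same complex, had 39.7, 34.1 and 38.9 CPM with DNMT1i and 41.3, 35.4 and 32.8 CPM with DMSO (log2 fold change 0.04 ± 0.10, adjusted p = 0.731). The motor CENPE was not called either, at −0.26 ± 0.12 (adjusted p = 0.0732).

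Spindle motors fell: KIF11 (the bipolarity kinesin) by 0.85, KIF4A by 0.76 and KIF2C by 0.74, with HMMR by 0.64 and DLGAP5 by 0.38. In cytokinesis KIF23 fell by 0.91, KIF20A by 0.62, ANLN (anillin) by 0.50 and ECT2 by 0.31, and PRC1 missed the threshold at −0.52 ± 0.23 (adjusted p = 0.0533). MKI67 had 288, 324 and 339 CPM with DNMT1i and 616, 624 and 542 CPM with DMSO, well apart (log2 fold change −0.91 ± 0.08, adjusted p = 9.58e-09), and TOP2A (topoisomerase II alpha) fell by 0.56. PCNT, a scaffold of the pericentriolar material, was the 1 gene that rose, with 66.3, 74.5 and 63.0 CPM with DNMT1i and 52.8, 61.8 and 55.5 CPM with DMSO. Its groups did not overlap, yet the change was small (log2 fold change 0.26 ± 0.09, adjusted p = 0.0129) and the call was lost without HCT116 DMSO replicate 1. PCNT has the most exon bases of the 38 genes, and MKI67 and CENPF, the next longest, fell. Over all genes, 40.4% of the 10% with the longest exons rose (median log2 fold change 0.10). In the 10% with the shortest exons 22.8% rose (median −0.16). The part of length in the rise of PCNT was not tested. By library size only, which shifts the median of all genes by 0.11, 31 genes fell and 2 rose (20.6% and 39.7% of all genes did), and the split over all genes was 6307 higher and 3265 lower in place of 5365 and 4426.

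**Figure D2:**
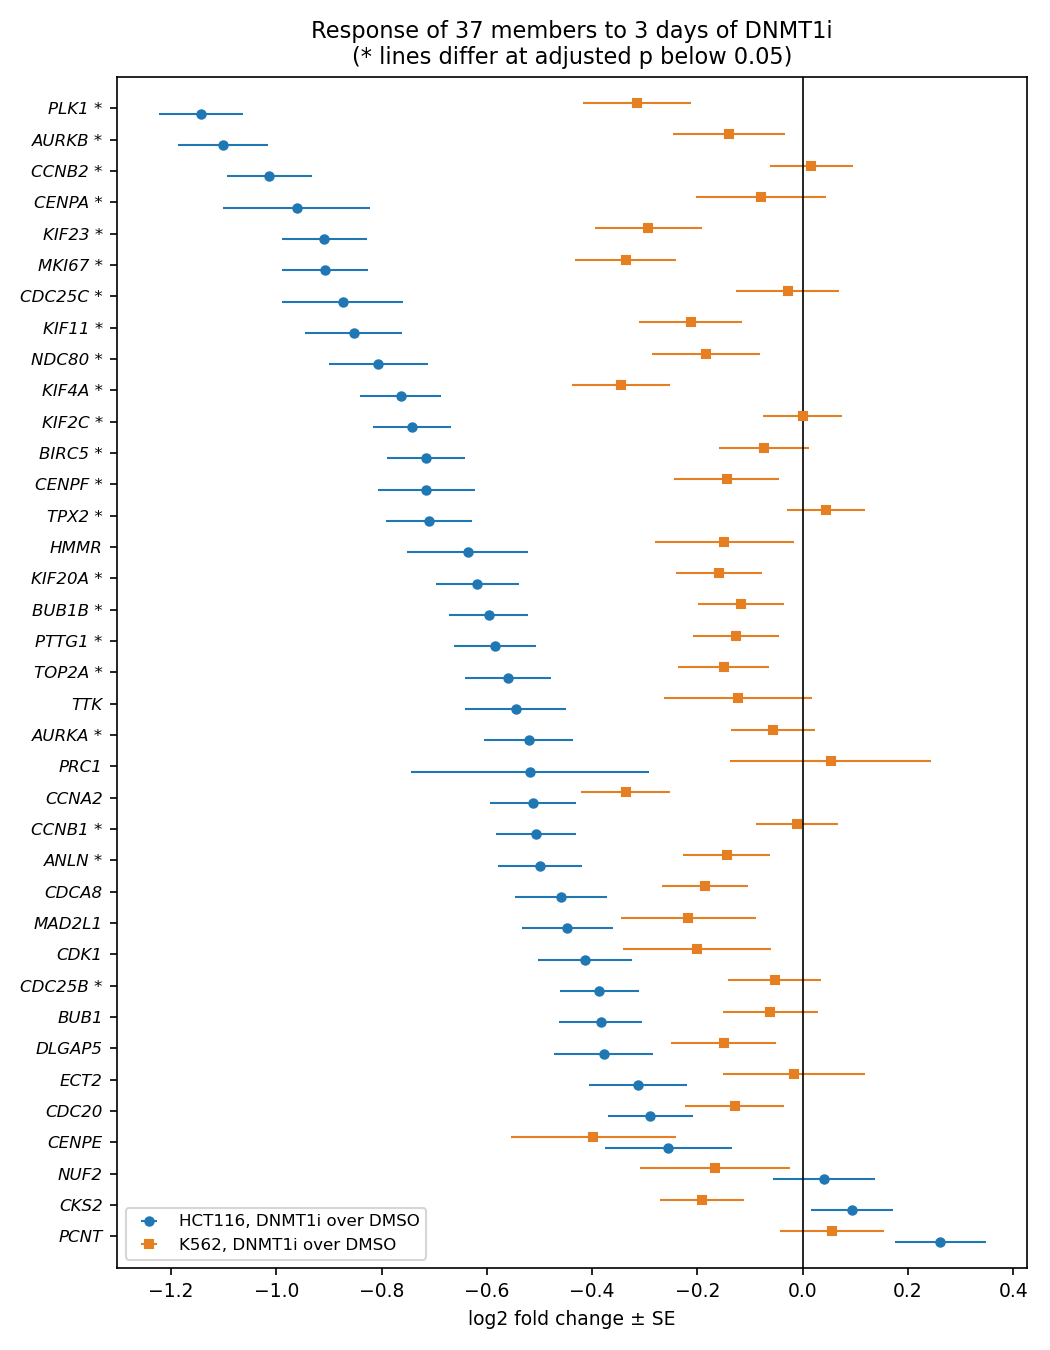
Log2 fold change ± SE (x axis) of 37 genes (rows, ordered by the HCT116 value) after 3 days of DNMT1i over DMSO in HCT116 cells (circles) and in K562 cells (squares), n = 3 per group. HCT116 values run from −1.14 for PLK1 to 0.26 for PCNT and K562 values from −0.40 to 0.06; an asterisk marks the 22 genes whose responses differed between lines.

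Genes of the same processes outside the set moved in the same HCT116 comparison, and some did not. Condensin subunits fell in 6 of 8 cases, other centromere and kinetochore genes in 23 of 32, other genes of mitotic entry and exit in 22 of 27 (with 2 higher), centrosome genes in 11 of 16, and S phase and licensing genes in 28 of 32 (with 2 higher). Their median log2 fold changes were −0.56, −0.47, −0.52, −0.31 and −0.58, against 0.02 over all genes, so S phase genes had about the same median as the 38. NCAPH of condensin I fell by 1.16, HJURP, the CENPA chaperone, by 0.88 and RACGAP1, a centralspindlin subunit, by 0.94. The replicative helicase subunit MCM7 fell by 0.91 and DNA ligase LIG1 by 0.96. Of 20 MuvB, E2F and FOXM1 regulators 9 fell and 1 rose: FOXM1 had 39.5, 42.5 and 41.1 CPM with DNMT1i and 102, 92.0 and 97.5 CPM with DMSO (log2 fold change −1.24 ± 0.08, adjusted p = 4.22e-11), and MYBL2 (B-MYB) fell by 0.82. APC/C and E2 genes were mixed, with 7 lower and 2 higher of 17. All 8 CDK inhibitor genes changed, 5 higher and 3 lower. CDKN2D rose by 1.48, and CDKN3, a phosphatase that acts on CDKs, fell by 0.79. Beside all these counts, 33.8% of all genes tested rose and 27.9% fell in this comparison.

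AURKC, the Aurora kinase of germ cells, went against its relatives. It had 100, 149 and 113 counts with DNMT1i and 4, 2 and 3 counts with DMSO in HCT116 cells (log2 fold change 5.08 ± 0.28, adjusted p = 6.49e-12). In K562 cells it had 43, 47 and 36 counts with DNMT1i and 1, 1 and 2 with DMSO (log2 fold change 4.78 ± 0.41, adjusted p = 2.58e-05). Per kilobase of exon, AURKC stood at 3.49 ± 0.27 CPM per kb in HCT116 DNMT1i cells, below AURKA at 13.9 ± 0.12 and AURKB at 13.2 ± 0.80 CPM per kb (SD, n = 3).

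In K562 cells the same treatment changed few of the 38 genes. None rose and 2 fell, where 6.47% of 13726 genes tested rose and 2.38% fell, and 8 of 37 (21.6%) had an unadjusted p below 0.05, against 22.2% of all genes. DESeq2 called 0 higher and 3 lower. The median log2 fold change was −0.14, against −0.0021 over all genes, with 33 of 37 values negative and an SD over genes of 0.12. CCNA2 (cyclin A2) had 303, 301 and 322 CPM with DNMT1i and 408, 411 and 350.4 CPM with DMSO, groups that did not overlap (log2 fold change −0.34 ± 0.08, adjusted p = 0.0336). Every DNMT1i library lay below every DMSO library for 8 of the 38 genes and above for 0, against 12.3% and 16.2% of all genes tested. KIF4A, a chromosome-bound kinesin, had 74.1, 72.2 and 70.5 CPM with DNMT1i and 87.4, 86.3 and 102 CPM with DMSO (log2 fold change −0.34 ± 0.09, adjusted p = 0.0443). CENPE had the lowest value without a call, at 187, 134 and 182 CPM with DNMT1i and 249.3, 240.3 and 174 CPM with DMSO (−0.40 ± 0.16, adjusted p = 0.162).

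PLK1 had 162, 173 and 144 CPM with DNMT1i and 185, 187 and 223 CPM with DMSO, without overlap, and was not called (log2 fold change −0.31 ± 0.10, adjusted p = 0.0937). AURKB had 76.7, 82.5 and 79.6 CPM with DNMT1i and 80.9, 80.7 and 102 CPM with DMSO (−0.14 ± 0.11, adjusted p = 0.485), and MKI67 had 298, 240.2 and 296 CPM with DNMT1i and 352, 336 and 365 CPM with DMSO (−0.34 ± 0.10, adjusted p = 0.0563). At the other end were PCNT (0.06 ± 0.10), PRC1 (0.05 ± 0.19) and TPX2 (0.04 ± 0.07), none of them called. The count rested on single libraries: without K562 DMSO replicate 3, the library that stood apart and in which 23 of 37 genes were lowest of the 3, 17 genes fell and 0 rose (10.5% and 13.6% of all genes did), and without any other single library the count was 0. The genes lower without that library included CCNA2, CDK1, PLK1, TTK, KIF11, KIF23, TOP2A and MKI67.

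UBE2C, the E2 enzyme that works with the APC/C, behaved otherwise in K562 cells. It had 558, 525 and 523 counts with DNMT1i and 9, 5 and 1 counts with DMSO (log2 fold change 6.64 ± 0.25, adjusted p = 3.39e-08). In CPM these are 27.5, 30.6 and 27.0 with DNMT1i and 0.429, 0.295 and 0.0628 with DMSO, while HCT116 cells had 63.6 ± 0.43 CPM with DNMT1i and 79.2 ± 3.10 CPM with DMSO (n = 3 each). The speckle K562 line, which was never given DNMT1i, had 5, 5 and 4 counts with dTAG-13 and 0, 6 and 3 with DMSO. UBE2C thus had at most 9 counts in any K562 library without DNMT1i. Elsewhere in the K562 comparison CDKN1A, the CDK inhibitor p21, rose by 0.85 and RB1 fell by 0.59 on the log2 scale, and FOXM1 was not called (−0.35 ± 0.12, adjusted p = 0.105).

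The difference between the lines was tested directly in a fit of all 12 wild-type libraries. The response was higher in K562 than in HCT116 cells, meaning less of a fall, for 22 of 37 genes and lower for 0, where 14.1% of 17237 genes tested were higher and 15.7% lower. The median difference of log2 fold changes was 0.47, against −0.01 over all genes. CCNB2 differed most clearly, with 0.02 in K562 and −1.01 in HCT116 cells (difference 1.04 ± 0.11, adjusted p = 1.09e-06). KIF2C (0.75 ± 0.10), AURKB (0.97 ± 0.14) and TPX2 (0.76 ± 0.12) followed. By role, 5 of 6 kinase and passenger genes, 4 of 7 cyclins and CDK1 regulators, 3 of 5 centromere, 3 of 6 motor and spindle, 3 of 5 cytokinesis, 2 of 6 checkpoint and 2 of 2 chromosome structure genes differed, and roles were not tested against each other. CCNA2 (0.18 ± 0.12, adjusted p = 0.279), CDC20 (0.17 ± 0.13) and CDK1 (0.22 ± 0.18) did not pass the test. CKS2 was at −0.28 ± 0.11 (adjusted p = 0.0662), the lowest of the 37. DESeq2 called 21 higher and 1 lower, and without K562 DMSO replicate 3 the counts were 23 and 2.

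With DMSO alone the level of most of the genes was higher in K562 than in HCT116 cells: 26 were higher and 5 lower (36.9% and 39.6% of all 17237 genes), with a median log2 difference of 0.78 against −0.02 over all genes. With CPM scaled separately in each line, CCNA2 had 408, 411 and 350.4 CPM in K562 and 106, 101 and 91.6 CPM in HCT116 cells (1.99 ± 0.09, adjusted p = 6.08e-14). KIF2C (1.49 ± 0.07) and TOP2A (1.66 ± 0.09) were higher too. CDC25B, a phosphatase that starts mitotic entry, went the other way with 95.3, 93.6 and 106 CPM in K562 and 302, 306 and 325 CPM in HCT116 cells (−1.65 ± 0.08, adjusted p = 2.89e-13). The other lower genes were MKI67 (−0.74), ECT2 (−0.58), KIF23 (−0.56) and ANLN (−0.38), so 3 of the 5 cytokinesis genes were lower in K562 cells. All 5 centromere and kinetochore genes were higher in K562 cells, from 0.47 for CENPF to 1.83 for CENPE.

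**Figure D3:**
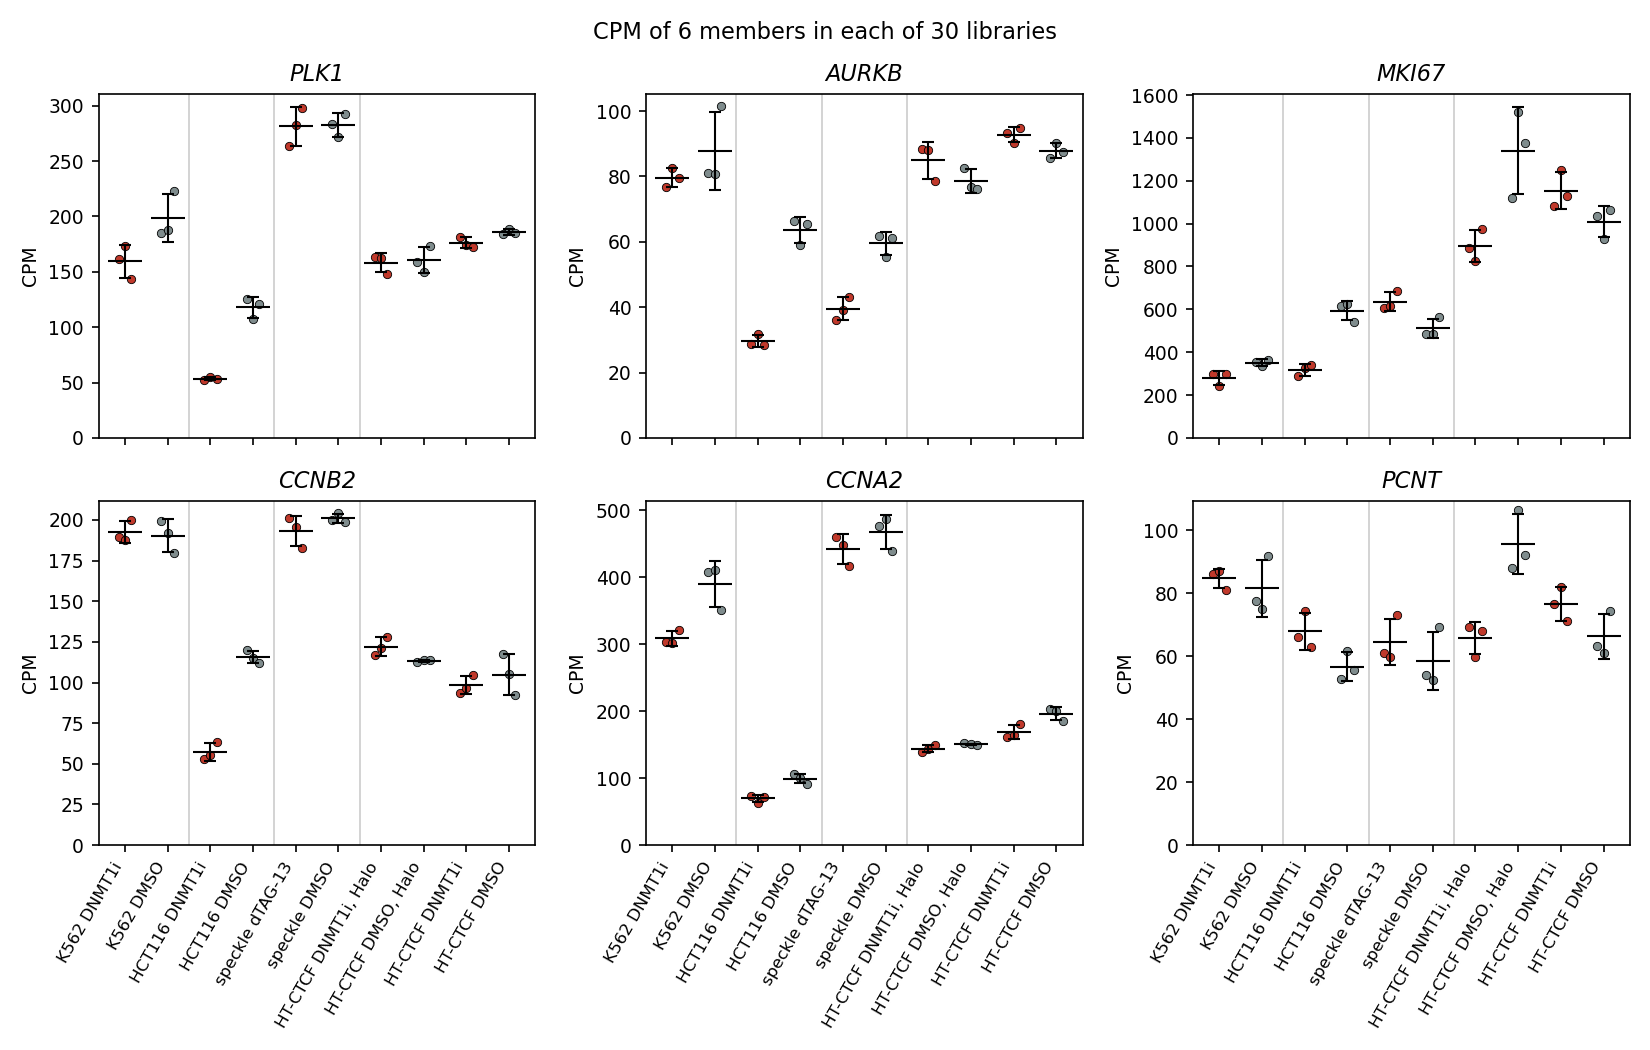
CPM (y axes, linear from 0) of PLK1, AURKB, MKI67, CCNB2, CCNA2 and PCNT in all 30 libraries by group; points are libraries and bars mean ± SD (n = 3). PLK1, AURKB, MKI67 and CCNB2 are lower in all 3 HCT116 DNMT1i libraries than in any HCT116 DMSO library, and AURKB is also lower in all 3 speckle dTAG-13 libraries than in their controls.

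Depletion of SON and SRRM2 for 6 hr changed 4 of the 37 genes: MKI67 rose and AURKB, KIF20A and KIF2C fell, where 1.57% of 14104 genes rose and 3.09% fell. The median log2 fold change was −0.07 against −0.01 over all genes, and 10 genes (27.0%) had an unadjusted p below 0.05, against 19.0% of all genes. AURKB had 36.2, 39.1 and 43.2 CPM with dTAG-13 and 61.8, 55.5 and 61.1 CPM with DMSO, far apart (log2 fold change −0.59 ± 0.09, adjusted p = 0.00509). KIF20A, a kinesin of cytokinesis, had 80.6, 79.7 and 78.8 CPM with dTAG-13 and 102, 103 and 109 CPM with DMSO (−0.39 ± 0.06, adjusted p = 0.00701). KIF2C, a microtubule depolymerase, had 204, 192 and 198 CPM with dTAG-13 and 237, 235 and 255 CPM with DMSO (−0.29 ± 0.06, adjusted p = 0.0232). None of the 3 genes overlapped between groups.

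MKI67 had 604, 617 and 687 CPM with dTAG-13 and 483, 486 and 563 CPM with DMSO, again without overlap (log2 fold change 0.32 ± 0.08, adjusted p = 0.0448). CENPF (0.16 ± 0.06, adjusted p = 0.151) and PCNT (0.14 ± 0.12, adjusted p = 0.538) had the next highest values and were not called, and PLK1 showed 263, 282 and 298 CPM with dTAG-13 and 284, 271 and 293 CPM with DMSO. MKI67, CENPF and PCNT have the most exon bases of the 38 genes. Over all genes, 3.20% of the 10% with the longest exons rose (median log2 fold change 0.01). In the 10% with the shortest exons 1.35% rose (median 0.07). The part of length in these values was not tested. Replicate 3 was high or low in both groups for many genes, and same-numbered libraries of this experiment deviated together. With the replicate number as a block, 2 genes rose and 11 fell (8.33% and 13.4% of all genes), which added CENPF to the higher and CDC25B, CDK1, CDC20, DLGAP5, BUB1B, TTK, MAD2L1 and CCNB1 to the lower genes. In the fit without the block these lower genes ran from −0.29 for CDC25B to −0.12 for CCNB1. Without dTAG-13 replicate 1 or 2, or DMSO replicate 1 or 2, MKI67 was not called. In those fits 46 to 123 of all genes were higher, against 222 with all libraries. The lower genes numbered 1 without dTAG-13 replicate 2 or DMSO replicate 1 and 5 without dTAG-13 replicate 3. Over all genes tested, 132 of 14390, 153 of 14606 and 768 of 14343 were lower in these fits, in that order. With all libraries 436 of 14104 were lower.

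Of 128 other mitosis and regulator genes 123 were tested in the speckle experiment, and 9 (7.32%) fell and 0 rose, where 3.09% of all genes fell and 1.57% rose. PKMYT1, which holds CDK1 inactive, fell by 1.16, E2F1 by 1.01, FZR1, the other APC/C activator, by 0.89, SPAG5 of the spindle by 0.73 and TACC3 of the centrosome by 0.40. Of the 32 S phase genes only CDT1 was called (−0.48). E2F1 had 6.85, 9.60 and 10.3 CPM with dTAG-13 and 18.0, 16.1 and 20.1 CPM with DMSO. FOXM1 differed little, at 106 ± 3.89 CPM with dTAG-13 and 105 ± 3.71 CPM with DMSO (n = 3 each).

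Because SON and SRRM2 sit with splicing factors, exon use was asked as well. A change of a bin's count relative to the rest of its gene was tested first without the block. It was called for 0 of 958 bins of the 38 genes and for 0.132% of all 184300 bins tested (edgeR diffSpliceDGE). At an unadjusted p below 0.05 were 19 of the 958 (1.98%), against 3.67% of all bins. The lowest adjusted p was that of KIF20A bin 35 (chromosome 5, 138187666 to 138187723), the last 58 bases of the gene, with 0.294%, 0.249% and 0.148% of the gene's counts in dTAG-13 cells and 0.448%, 0.573% and 0.468% in DMSO cells (adjusted p = 0.708 in edgeR over all bins). These shares rest on 5 to 20 counts per library. The next were CDK1 bin 9, KIF11 bin 3, BUB1B bin 4, KIF23 bin 39 and CCNB1 bin 23, with adjusted p between 0.736 and 0.968.

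With the replicate number as a block, 5 of 958 bins of these genes were called, and 1334 of all 184300 bins (0.724%). At an unadjusted p below 0.05 were 69 of the 958 (7.2%), against 8.8% of all bins, so these genes did not stand out. CDK1 bin 9 (chromosome 10, 60778571 to 60778668, 98 bases) took 0.657%, 0.667% and 0.973% of the gene's counts in dTAG-13 cells and 0.417%, 0.327% and 0.665% in DMSO cells, higher in each same-numbered pair (adjusted p = 0.0380 in the blocked edgeR fit). BUB1B bin 4 (chromosome 15, 40161069 to 40161255) took 1.69%, 1.78% and 3.08% in dTAG-13 cells and 1.53%, 1.19% and 2.10% in DMSO cells (adjusted p = 0.0366). CCNB1 bin 23 (chromosome 5, 69177701 to 69178245), at the 3′ end of the gene, took 1.72%, 1.82% and 1.39% in dTAG-13 cells and 2.14%, 2.50% and 1.72% in DMSO cells (adjusted p = 0.0150). TOP2A bin 2 and PRC1 bin 2, both at the 3′ end of their genes, were lower with dTAG-13 (adjusted p = 0.0286 and 0.0361). The higher bins of CDK1 and BUB1B lie near the 5′ end of their genes. Whether read coverage along the genes differed between libraries was not tested.

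**Figure D4:**
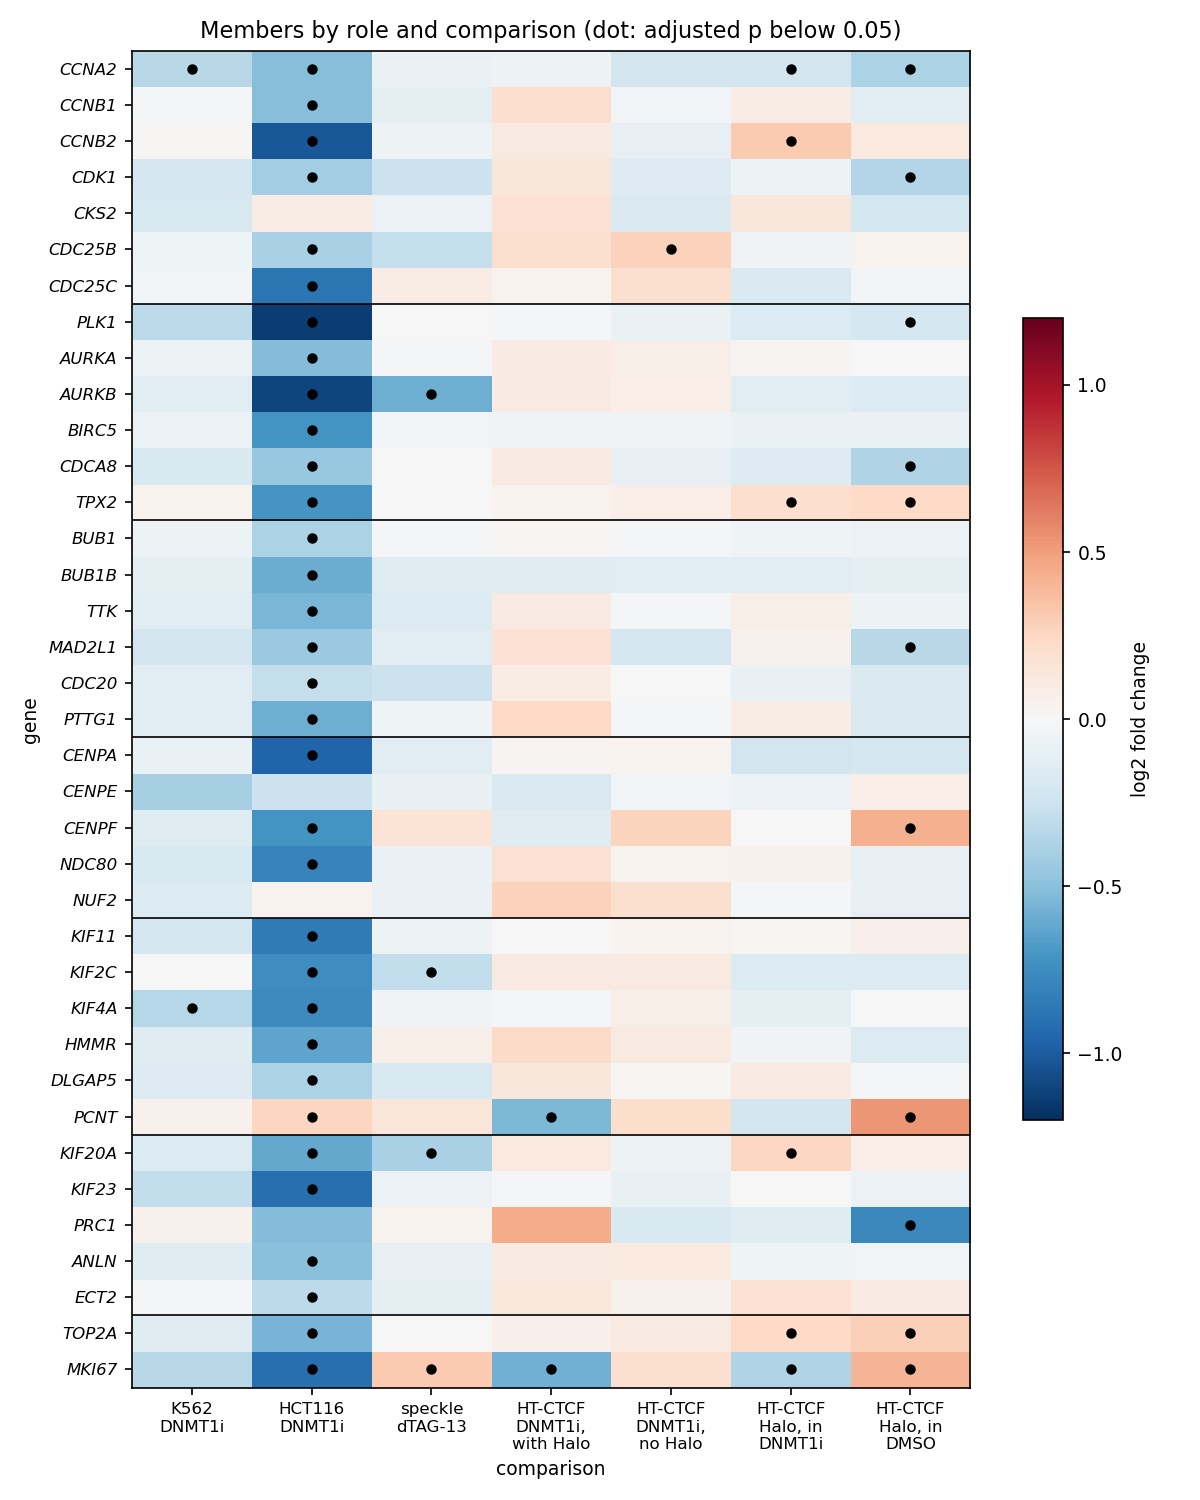
Log2 fold change (color, from −1.2 to 1.2) of 37 genes (rows, lines divide the roles) in 7 comparisons (columns); a dot marks an adjusted p below 0.05. The HCT116 DNMT1i column holds 33 dots and the K562 column 2, and the HT-CTCF columns hold between 1 and 11.

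In HT-CTCF cells, DNMT1i was given for 1 day, so its values are not compared with those of the 3-day experiment. The study gives the inhibitor under more than a single compound code, and whether both experiments used the same compound is not settled by the sources used here. The 4 groups were fitted together, and each group serves in more than 1 contrast. With HaloPROTAC3 present, DNMT1i raised 0 and lowered 2 of the 37 genes, where 2.86% of 12690 genes tested rose and 2.55% fell, and 10 (27.0%) had an unadjusted p below 0.05, against 20% of all genes. The genes were MKI67, with 888, 825 and 974 CPM in DNMT1i plus HaloPROTAC3 and 1122, 1521 and 1377 CPM in DMSO plus HaloPROTAC3 (log2 fold change −0.58 ± 0.09, adjusted p = 9.24e-05), and PCNT, with 69.2, 59.8 and 68.0 CPM against 88.2, 107 and 92.3 CPM (−0.54 ± 0.09, adjusted p = 0.000368). Neither overlapped between groups. With DESeq2 the count of higher genes was 1, and it was 2 without DNMT1i plus HaloPROTAC3 replicate 1 or DMSO replicate 1. The median over all 37 was 0.10 against 0.01 over all genes, and the highest were PRC1 (0.44 ± 0.25) and NUF2 (0.27 ± 0.11), not called. PLK1 (−0.02 ± 0.07) and AURKB (0.11 ± 0.08) were not called.

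Without HaloPROTAC3, DNMT1i raised 1 gene and lowered 0, where 1.98% of all genes rose and 0.504% fell, and 7 (18.9%) had an unadjusted p below 0.05, against 15.7% of all genes. DESeq2 called 1 higher and 0 lower. CDC25B had 229, 225 and 234 CPM with DNMT1i and 196, 192 and 180 CPM with DMSO, without overlap (log2 fold change 0.28 ± 0.07, adjusted p = 0.0244). The call was lost without any one of the DNMT1i libraries and without DMSO replicate 2 or 3. CENPF (0.27 ± 0.08, adjusted p = 0.0770), CCNA2 (−0.22 ± 0.07, adjusted p = 0.104) and MAD2L1 (−0.21 ± 0.09, adjusted p = 0.214) had the other outermost values. PLK1 had 182, 175 and 173 CPM with DNMT1i and 184, 189 and 185 CPM with DMSO, AURKB 93.3, 90.3 and 94.8 CPM against 85.7, 90.2 and 87.5 CPM, and MKI67 1083, 1249 and 1127 CPM against 1037.5, 926 and 1064 CPM, none of them called. The log2 fold changes were −0.08 ± 0.07 for PLK1 and 0.08 ± 0.08 for AURKB. Every DNMT1i library lay above every DMSO library for 7 of the 38 genes and below for 5, against 10.4% and 10.0% of all genes tested. CDC25B, AURKB and MKI67 are among the former and PLK1 among the latter.

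Removal of CTCF in DMSO raised 5 of the 37 genes and lowered 6, which is 13.5% and 16.2% of them, where 10.1% of all genes rose and 7.28% fell. PCNT (0.53 ± 0.09), CENPF (0.42 ± 0.08), MKI67 (0.41 ± 0.09), TOP2A (0.29 ± 0.07) and TPX2 (0.24 ± 0.07) rose. CENPF, a large kinetochore protein, had 534, 673 and 613 CPM with HaloPROTAC3 and 469.8, 418 and 471 CPM without it, and PCNT had 88.2, 107 and 92.3 CPM against 63.4, 61.2 and 74.3 CPM. CCNA2 had 152, 151 and 150.04 CPM with HaloPROTAC3 and 203, 200.5 and 185 CPM without it (−0.38 ± 0.07, adjusted p = 0.000216). CDCA8 (−0.36), CDK1 (−0.35), MAD2L1 (−0.33), PLK1 (−0.21) and the poorly counted PRC1 (−0.77) fell too. The PLK1 call was lost with the replicate block, without the low count filter, with the 2 compared groups only and without DMSO plus HaloPROTAC3 replicate 1 or 2, DNMT1i replicate 1 or 2 or DMSO replicate 2 or 3. The PRC1 call was lost with DESeq2 and without DMSO plus HaloPROTAC3 replicate 2 or DMSO replicate 1 or 3, and the TPX2 call by library size only and without DMSO plus HaloPROTAC3 replicate 2 or DMSO replicate 2 or 3. Counts scaled by library size only gave 4 higher and 13 lower genes (7.23% and 11.9% of all genes) and moved the split over all genes to 918 higher and 1505 lower, in place of 1276 and 924.

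Removal of CTCF in DNMT1i raised 4 genes and lowered 2 (12.2% of all genes rose and 10.1% fell). CCNB2 had 117, 121 and 128 CPM with HaloPROTAC3 and 93.7, 96.8 and 105 CPM without it (0.32 ± 0.08, adjusted p = 0.00583), and KIF20A had 156, 148 and 162 CPM against 140.1, 131 and 120.3 CPM (0.25 ± 0.07, adjusted p = 0.0142). TOP2A (0.24) and TPX2 (0.20) rose in this background as well. MKI67 had 888, 825 and 974 CPM with HaloPROTAC3 and 1083, 1249 and 1127 CPM without it (−0.36 ± 0.09, adjusted p = 0.00284), and CCNA2 had 139.6, 143 and 150.1 CPM against 161, 165 and 180.3 CPM (−0.22 ± 0.07, adjusted p = 0.0258). These small values depend on the scaling: by library size only, which shifts the median of all genes by −0.10 here, 0 rose and 9 fell (7.41% and 17.7% of all genes did), and the split over all genes was 940 higher and 2246 lower in place of 1551 and 1286. The higher genes numbered 2 without DNMT1i plus HaloPROTAC3 replicate 3 or any of the libraries with DNMT1i alone. The lower genes numbered 1 without DNMT1i plus HaloPROTAC3 replicate 1 or 2 or DNMT1i replicate 3. Over all genes, 1095 to 1235 were higher in the former fits and 1063 to 1158 lower in the latter, against 1551 and 1286.

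The interaction asks whether the DNMT1i response differed with and without HaloPROTAC3. It was lower for 2 of 37 genes and higher for 0, where 0.213% of all genes were lower and 0.0552% higher, and 8 (21.6%) had an unadjusted p below 0.05, against 14.1% of all genes. DESeq2 called 0 higher and 3 lower. MKI67 had a DNMT1i response of −0.58 with HaloPROTAC3 and 0.19 without it (difference −0.77 ± 0.12, adjusted p = 0.00957), and PCNT had −0.54 and 0.21 (−0.75 ± 0.13, adjusted p = 0.0154). CENPF followed at −0.42 ± 0.12 (adjusted p = 0.101) and MAD2L1 at 0.39 ± 0.12 (adjusted p = 0.137). The count of 2 dropped to 0 without DMSO plus HaloPROTAC3 replicate 3, DNMT1i replicate 2 or DMSO replicate 2, and to 1 without DNMT1i replicate 1. In the fits that gave 0, 0 of all genes tested were higher and 0 lower. Without DNMT1i replicate 1, 0 of all genes were higher and 1 lower, against 7 and 27 with all libraries.

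PCNT, MKI67 and CENPF are the 3 longest of the 38 genes, with 17507, 12845 and 12471 exon bases, and length moved with these contrasts over all genes. In the 10% of genes with the longest exons (12109 bases and more) 11.2% were lower with DNMT1i in the presence of HaloPROTAC3 and the median log2 fold change was −0.08, against 0.631% and 0.09 in the 10% with the shortest. For HaloPROTAC3 in DMSO, 21.2% of the longest 10% were higher with a median of 0.10, against 4.18% and −0.10 in the shortest 10%, and for the interaction the medians were −0.08 and 0.06. The part of length in the values of these genes was not tested. DNMT1i without HaloPROTAC3 had a median of −0.01 in the longest 10% and 0.02 in the shortest.

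**Figure D5:**
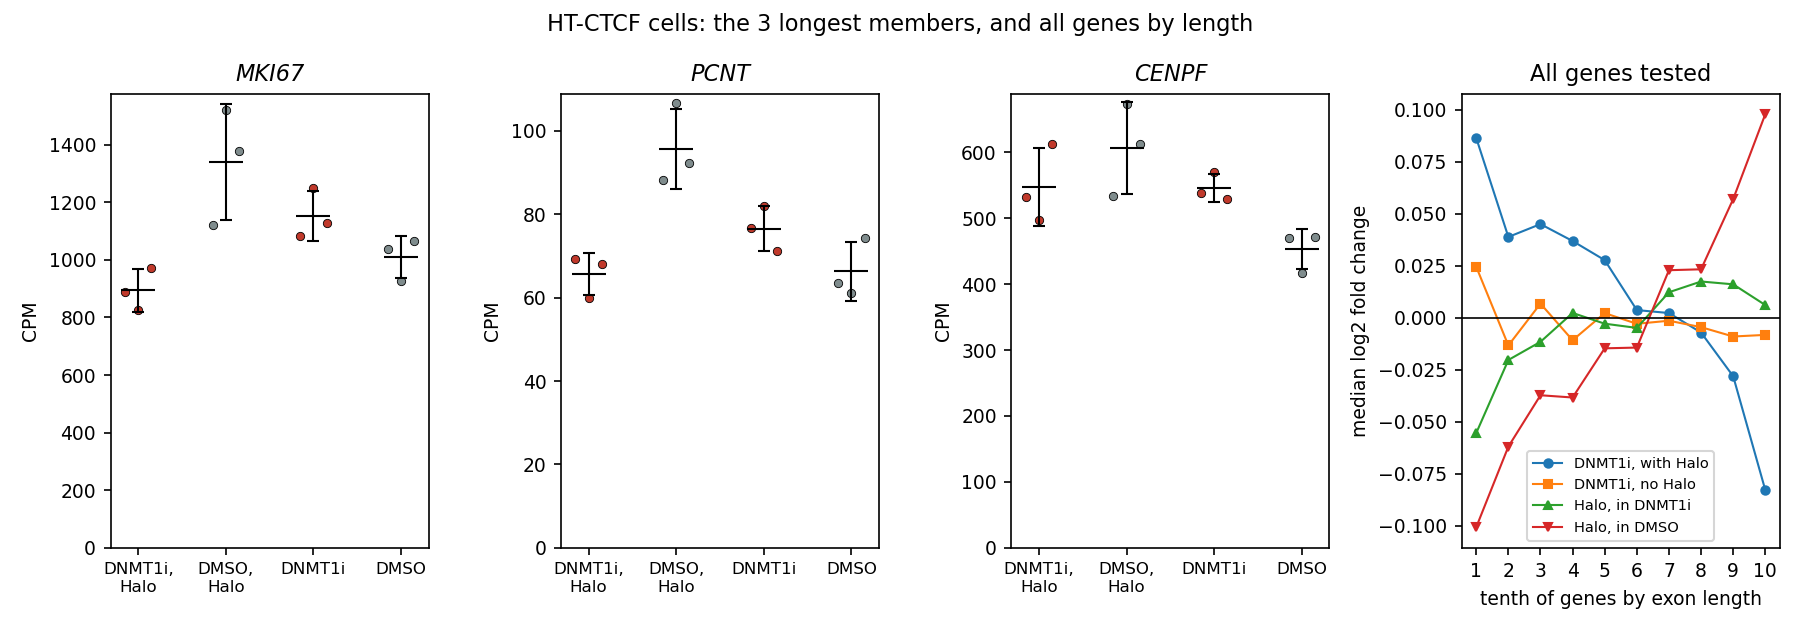
CPM (linear from 0) of MKI67, PCNT and CENPF in the 12 HT-CTCF libraries (points; bars, mean ± SD, n = 3), and the median log2 fold change of all 12690 genes tested by bin of exon length (10 equal bins, 1 shortest) in 4 contrasts; Halo stands for HaloPROTAC3. DMSO plus HaloPROTAC3 has the highest mean of the 3 genes, and the line of DNMT1i with HaloPROTAC3 runs from 0.09 to −0.08 while that of HaloPROTAC3 in DMSO runs from −0.10 to 0.10.

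Outside the set, 3 of 8 CDK inhibitor genes rose with CTCF removal in each background, with 1 lower in DNMT1i and 0 lower in DMSO, and 4 of the 8 values were positive in each (medians 0.08 and 0.09). Those that rose were CDKN2B (p15), by 2.16 in DNMT1i and 1.42 in DMSO, CDKN1B (p27) by 0.61 in DNMT1i and 0.43 in DMSO, and CDKN1C (p57) by 0.91 and 0.70. In DNMT1i, 10 of 32 S phase genes fell and 0 rose, with CDT1 at −0.47 and MCM7 at −0.37, and 6 of 19 tested MuvB, E2F and FOXM1 regulators fell, MYBL2 by 0.38 among them, with 3 higher. In DMSO, 5 of 32 S phase genes fell and 0 rose. Over all genes, 12.2% rose and 10.1% fell with CTCF removal in DNMT1i, and 10.1% and 7.28% in DMSO. Of the 125 tested mitosis and regulator genes, 8.8% rose and 21.6% fell in DNMT1i, and 7.2% and 6.4% in DMSO. Among them, 9 of 25 tested genes of mitotic entry and exit fell in DNMT1i and 2 rose. CEP135, a centriole protein, fell by 0.74 in DNMT1i and 0.93 in DMSO. In the DNMT1i contrasts, 2.4% of the 125 tested mitosis and regulator genes rose and 2.4% fell with HaloPROTAC3, near the 2.86% and 2.55% of all genes, and 2.4% rose and 0.8% fell without it, near 1.98% and 0.504%.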

How the data were processed

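Poly(A) RNA-seq of 30 libraries was analysed. As the methods of the study and the processing notes of the submitters say, the authors removed duplicates by UMI (UMI-tools 1.1.1), trimmed adapters (cutadapt 2.7), aligned reads to hg38 (STAR 2.6.0) and counted them with HTSeq for genes and by exon bin, and they deposited raw counts without normalization. Bin start and end positions (other values) were taken from a deposited table of the authors' exon comparison. The fold changes and p-values in the authors' comparison tables, and 18 columns of per-sample values there, were not used. Whether counting used strand is not given in the sources used, so genes with overlapping or antisense partners are uncertain. Reads not placed in a single gene (17.1% to 23.6%) were left out.

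Of 60664 identifiers, 60463 (99.7%) matched GENCODE 44, which gave positions and union exon lengths. Gene counts were tested with edgeR 4.0.16 in R 4.3.3 (quasi-likelihood F test, TMM scaling, filterByExpr), with Benjamini-Hochberg adjustment over all genes tested and calls at adjusted p below 0.05, without a limit on size. Wild-type and speckle comparisons used their own 6 libraries, the HT-CTCF contrasts all 12 and the comparison of lines the 12 wild-type libraries. A standard error was obtained by dividing the absolute log2 fold change by √F. Exon bins were tested with diffSpliceDGE. Scripts were tested on simulated data. Alternatives were other scaling, DESeq2 1.42.0, no low count filter, a stricter bin filter, the 2 compared groups only, a replicate block and leaving out each library.

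Same-numbered libraries were judged to be paired where the correlation of their deviations exceeded 0.1 for every number. This held in the speckle experiment (0.19, 0.48 and 0.78) and in none of the other pairs of groups examined (K562, HCT116 and, in HT-CTCF cells, both DNMT1i and both HaloPROTAC3 contrasts). The main fits held no replicate block in any experiment, so the main speckle results leave this pairing out. The blocked speckle fits were run as alternatives. No pair of replicates differed by as little as sampling noise (the lowest chi-square was 1.79 per degree of freedom).

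The genes and the 8 lists of other cell cycle genes were chosen with earlier results of these data known. The genes to name were PLK1, AURKB and MKI67, the 3 highest and 3 lowest log2 fold changes of a comparison (2 in HT-CTCF contrasts) and genes called against the majority. To these came the 4 smallest p-values for differences between responses or lines, up to 3 called genes of each other list, and the smallest-p bin of up to 6 genes. Values per library were planned for the first of these sets, and some of its genes are given with the log2 fold change only. Other values were added after they were seen. Promoters followed the 2 largest and the 2 smallest called HCT116 falls.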

Additional observations from a re-analysis of the deposited data

Results flagged for a closer look

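The DNMT1i response differed between K562 and HCT116 cells by a test of the difference itself for 22 of the 37 genes, all with a higher value in K562 cells. CCNB2 differed by 1.04 on the log2 scale. AURKB differed by 0.97, TPX2 by 0.76 and KIF2C by 0.75. In HT-CTCF cells the DNMT1i response differed with and without HaloPROTAC3 for 2 genes, MKI67 (−0.77) and PCNT (−0.75). Groups of 3 libraries are too small for the gap test of outlying values (Dixon), which was not run.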

How the results depend on the processing

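With the replicate number as a block, 0 genes were lower in K562 cells, 2 higher and 11 lower in the speckle experiment, and 5 exon bins were called. The block moved no other count of genes by more than 1.5 times. Numbers pair the libraries only in the speckle experiment; in K562, HCT116 and HT-CTCF cells some same-numbered libraries correlated below 0.1, and libraries there share only a number.

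By library size only, 0 genes were lower in K562 cells, 2 were higher in HCT116 cells, 13 were lower with HaloPROTAC3 in DMSO, 0 were higher and 9 lower with HaloPROTAC3 in DNMT1i, and the K562 minus HCT116 response was lower for 1. RLE scaling and DESeq2 each gave 1 for that last count, and DESeq2 gave 5 lower genes in the speckle experiment and 1 higher for DNMT1i with HaloPROTAC3. Without the low count filter, 5 genes were lower in K562 cells, 0 were higher for DNMT1i without HaloPROTAC3, and 2 were higher and 1 lower with HaloPROTAC3 in DNMT1i. With the 2 compared groups only, 2 were higher for DNMT1i without HaloPROTAC3. The cause was not tested.

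Leaving out each library gave 0 to 17 lower genes in K562 cells, 0 to 1 higher and 31 to 34 lower in HCT116 cells, 0 to 1 higher and 1 to 5 lower in the speckle experiment, and 0 bins. In HT-CTCF cells it gave 0 to 2 higher for DNMT1i without HaloPROTAC3, 0 to 2 higher and 2 to 3 lower with it, 4 to 5 higher and 4 to 6 lower for HaloPROTAC3 in DMSO, 2 to 5 higher and 1 to 2 lower in DNMT1i, and 0 to 1 higher and 0 to 3 lower for the interaction. The difference of responses gave 20 to 24 higher and 0 to 2 lower, and DMSO levels 26 to 27 higher and 5 lower. Calls over all genes moved in these fits too. Lower genes over all numbered 124 to 1499 in K562 cells, 132 to 768 in the speckle experiment and 0 to 166 for the interaction. Of 561 values of single genes under an alternative, 496 kept their direction and side of the threshold, 65 lost the call and 0 changed sign. These values cover only named genes called in the main fits, so genes that gained a call cannot appear among them. The few counts of PRC1 and NUSAP1 limit precision.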
